A study of Mus musculus with 4 samples.

Results

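The genes described here build, bind and cut the extracellular matrix: collagens, laminins, integrins, heparan sulfate proteoglycans, matrix metalloproteinases and ADAM proteases, their tissue inhibitors, and the secreted glycoproteins and lecticans of brain matrix. They were taken by gene symbol from the deposited table, as features with exactly 1 platform gene symbol and a value on at least 1 array. This gave 165 features of 130 genes out of 16281 features in the table, and 14030 of all features had any value. Another 21 features with such symbols carried no value on any array and are not counted.

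The tissue was the dentate gyrus, the granule cell region of the hippocampus, taken from C57BL/6J males described as young. The mice received either saline, at 5 µL per g of body weight, whose RNA carried Cy3, or MK-801, at 300 µg per g as the labels print it, whose RNA carried Cy5. MK-801 is a channel blocker of the NMDA receptor. There was 1 two-channel array at each of 1, 2, 4 and 6 h, and the times are counted from a last shock that the labels tie to the MK-801 mice while describing the RNA as that of control mice. The labels do not say whether the injected mice were shocked, how many animals a sample pooled, or their age beyond "young". All groups share the strain, the sex and the tissue.

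The matrix of the adult brain is unusual: fibrillar collagens are largely kept to vessels and meninges, collagen IV and laminins form the basement membranes of vessels, and neurons are embedded in a hyaluronan mesh held by lecticans such as brevican and neurocan. Metalloproteinases and ADAM proteases cut this mesh and cell surface proteins, TIMP proteins block them, and integrins and syndecans connect matrix to the cell. In the hippocampus MMP9 and TIMP1 are known as genes that respond to neuronal activity.

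All values are log ratios of the 2 channels, centred on the median of each array and read as log2. The log base and the direction of the ratio are not given in the sources used here, so a positive value may mean more RNA with MK-801 or more with saline. Values are therefore given by sign only. An exact 0, which filled 24.9% to 37.4% of each array, was read as no value. The table holds ratios and no levels, so the tissue could not be checked against the levels of its markers. In bulk tissue a ratio cannot separate fewer cells of a type from less RNA per cell.

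The members were thinly measured. Values were present for 128, 143, 100 and 109 of the 165 features at 1, 2, 4 and 6 h. On all 4 arrays 69 of them (41.8%) had a value, against 62.6% of all features with any value. The 1 h array stood apart: across members, leaving out 5 features at or below -1.5 on some array, Pearson r between 1 h and 2, 4 and 6 h was -0.35 (n = 110), -0.09 (n = 77) and -0.30 (n = 81), and it was 0.40 (n = 89), 0.51 (n = 94) and 0.57 (n = 86) between 2 and 4 h, 2 and 6 h, and 4 and 6 h. These are descriptions across features of single arrays. Over all features the same values ran from -0.18 to 0.68. With those 5 features kept, the members' values turned positive against 1 h, at 0.12, 0.28 and 0.23, and were 0.86, 0.89 and 0.91 among the later times, while Spearman's rho against 1 h was -0.22, -0.04 and -0.18. Results are given with and without 1 h for this reason.

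A single time has no replicate to test it with, so the mean over arrays was tested with the spread between times as its error. Each condition carried the same dye on every array, so a test of the mean cannot tell the drug from the dye. The part of the dye in the calls and adjusted p-values was not tested. With all 4 arrays, limma placed 0 of 69 members past an adjusted p of 0.05 (percent called over all features 0), and 9 members (13%) had an unadjusted p under 0.05, where 14.8% of all features did. Of the 9, 3 were positive (4.35%, against 6.9% of all features) and 6 negative (8.7%, against 7.85%). For a slope on log2 hours limma also placed 0 of 69 past the threshold (percent called over all features 0), with 12 (17.4%) at an unadjusted p under 0.05 and 15.5% over all features. Of these 12, 5 had positive slopes (7.25%, against 8.85% of all features) and 7 negative ones (10.1%, against 6.61%).

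Over the 2, 4 and 6 h arrays alone, 10 of 82 members (12.2%) passed in limma, where 10.9% of all 9353 features passed, and 30 (36.6%) had an unadjusted p under 0.05, against 34.1%. The share of members called was close to that of the table. Of the 10, 7 were negative (percent called over all features in that direction 5.24) and 3 positive (5.7). They belonged to 9 genes: Sdc3, both Timp1 features, Lama5, Gpc6, Itga6 and Adam22 were negative, and Mmp9, Lamb2 and Adam1a were positive. The calls depended on which arrays were used. Without 4 h 4 members passed and without 6 h 2 passed, and of the 10 only Sdc3 and Timp1 feature 17645 were among them in either case. Without 2 h 12 passed, 6 of them among the 10. The other 4 of the 10, Adam22, Itga6, Lamb2 and Mmp9, were lost whichever array was left out. With exact 0 read as a value 0 passed, with 26 of 165 at an unadjusted p under 0.05.

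**Figure D1:**
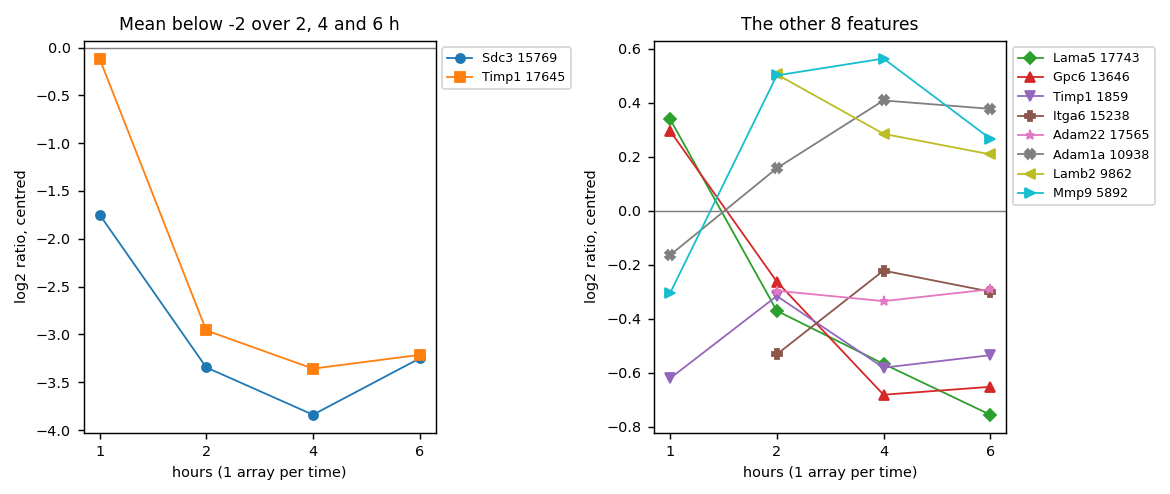
Centred log2 ratio (vertical axis) at 1, 2, 4 and 6 h (horizontal axis, 1 array each) of the 10 features called over 2, 4 and 6 h, with the gene and the feature number in the key; a feature with no value at 1 h starts at 2 h. Sdc3 and Timp1 feature 17645 lie near or below -3 from 2 h on, and the other 8 features lie between -0.76 and 0.56.

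Of the inhibitors of metalloproteinases limma called 2 of 4 tested features over 2, 4 and 6 h (10.9% of all features), both of Timp1. Timp1, which binds and blocks most matrix metalloproteinases, has 2 features. Feature 1859 read -0.62, -0.32, -0.58 and -0.53 at 1, 2, 4 and 6 h. It was negative on every array, and its 4-array mean of -0.51 ± 0.14 (SD over the 4 times) had an adjusted p of 0.206 in limma, against 0.0272 over the later times (-0.48 ± 0.14). Feature 17645 read -0.12, -2.96, -3.36 and -3.21. It was also negative throughout, but far lower from 2 h on (mean over 2, 4 and 6 h -3.18 ± 0.20, limma adjusted p = 7.82e-05), so the features shared a sign and differed widely in size at each later time.

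The other inhibitors were all positive at 4 h. Timp2 feature 10381 read 0.02, 0.24, 0.12 and -0.05, and feature 218 read 0.63 at 4 h and 0.21 at 6 h. Timp3, which is held in the matrix, read -0.08, -0.10, 0.11 and -0.00. Timp4 had 0.17 at 1 h, 0.34 at 4 h and 0.33 at 6 h. Neither Timp2 feature 10381 nor Timp3 passed in limma (adjusted p 0.368 and 0.999 over the later times), and Timp4, without a 2 h value, was not tested.

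The promoter of Timp1 is shown because both of its features were negative on every array, beside those of Mmp12 and Mmp3, matrix metalloproteinases with a feature on all 4 arrays and a match to the AP-1 motif. These were chosen after their values were seen. AP-1 is the Fos and Jun dimer, which binds many protease promoters. Sequences are RefSeq's for GRCm38.p6, from 250 bases before to 50 after the annotated start, 5′ to 3′ on the gene's plus strand: chrX:20869916-20870215 for Timp1, chr9:7347124-7347423 for Mmp12 (1 of its 2 listed starts) and chr9:7445572-7445871 for Mmp3. Capitals mark TGAGTAA in Timp1 and TGANTCA in the others.
Timp1: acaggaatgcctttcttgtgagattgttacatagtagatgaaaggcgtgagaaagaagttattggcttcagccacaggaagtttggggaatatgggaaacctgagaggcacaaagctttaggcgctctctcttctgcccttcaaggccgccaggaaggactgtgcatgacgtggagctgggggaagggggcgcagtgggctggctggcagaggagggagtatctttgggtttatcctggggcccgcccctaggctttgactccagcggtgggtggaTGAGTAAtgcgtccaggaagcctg
Mmp12: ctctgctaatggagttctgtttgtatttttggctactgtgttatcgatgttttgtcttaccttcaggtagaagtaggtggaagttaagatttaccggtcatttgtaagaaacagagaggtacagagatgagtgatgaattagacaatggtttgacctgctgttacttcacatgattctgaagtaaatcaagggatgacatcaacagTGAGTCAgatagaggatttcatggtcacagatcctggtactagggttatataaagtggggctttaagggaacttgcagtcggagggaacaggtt
Mmp3: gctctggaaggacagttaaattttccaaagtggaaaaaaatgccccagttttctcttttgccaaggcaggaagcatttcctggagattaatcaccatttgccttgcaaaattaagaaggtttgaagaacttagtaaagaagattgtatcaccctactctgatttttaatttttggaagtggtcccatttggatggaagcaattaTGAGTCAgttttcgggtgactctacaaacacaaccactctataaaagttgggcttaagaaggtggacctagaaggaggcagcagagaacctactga

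The Timp1 match lay at bases 27 to 33 after the start, and those of Mmp12 and Mmp3 began at -44 and -46. Of the 130 genes 86 matched the promoter table, with 99 promoters. TGANTCA, which reads the same on both strands, was in 13 of the 99 (13.1%), against 7.81% of all 32851 promoters of this length. Of the 16 promoters of 13 matrix metalloproteinase genes 8 held it (50%), those of Mmp1a, Mmp1b, Mmp3, Mmp7, Mmp10, Mmp12, Mmp13 and Mmp20. These were 8 of the 13 member promoters with TGANTCA, so the members' share came largely from this class. TGAGTAA or its reverse TTACTCA, was in 2 member promoters (2.02%), those of Timp1 and Lamb2, and in 2.68% of all. The cyclic AMP response element TGACGTCA was in 0 of 99 and in 1.79% of all. Both strands were searched, and none of these strings contains another. A match of letters is a description of the window and shows no binding.

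Syndecans are transmembrane heparan sulfate proteoglycans, and syndecan 3 is the main one of neurons. Sdc3 read -1.75, -3.35, -3.84 and -3.25 (mean over 2, 4 and 6 h -3.48 ± 0.32, limma adjusted p = 0.000142; 4-array mean -3.05 ± 0.90, adjusted p = 0.206). It was the lowest member at 1, 2, 4 and 6 h. Its relatives did not share the pattern. Sdc2 read -1.18 at 1 h and 0.32 at 2 h, with no later value. Sdc1 read 0.13, -0.84 and -0.13 at 1, 2 and 6 h, and Sdc4 read -0.51, 0.12, -0.20 and 0.15. Sdc1 was thus low at 2 h alone, and the 1 h value was the low one for Sdc2 and Sdc4.

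Some of the values this low, though not all, stood in runs of neighbouring feature numbers. For the 20 features numbered next to Sdc3 the medians were -0.35, -2.03, -2.44 and -2.42 at 1, 2, 4 and 6 h, and 12 of 18, 13 of 17 and 12 of 17 measured neighbours were at or below -1 from 2 h on. Next to Timp1 feature 17645 the medians were -0.24, -0.35 and -0.37 at 2, 4 and 6 h, with 5 of 14, 5 of 12 and 5 of 12 neighbours at or below -1. The elastic fibre gene Fbln2 (-0.19, -1.67 and -2.27 at 1, 2 and 6 h) had 4 of 17 such neighbours at 2 h and 5 of 15 at 6 h. In the table as a whole 2.02%, 5.14% and 2.85% of measured features had at least 2 low neighbours at 2, 4 and 6 h, whereas 41.9%, 44.6% and 41.1% of the low features themselves did. At 1 h these shares were 0.387% and 10%. Sdc3 had 3 of 16 neighbours at or below -1 at 1 h, and Sdc2 had 2 of 16. The part of these neighbours in the ratios of Sdc3, Sdc2, Timp1 and Fbln2 was not tested.

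Other low members had fewer such neighbours. Mmp20, the tooth enamel protease, read -0.32, -2.25 and -2.79 at 1, 4 and 6 h with 0 neighbours at or below -1, while its other feature read -0.17 and -0.03 at 1 and 2 h. Itga8, an integrin alpha subunit, read -0.01 at 1 h and -3.04 at 4 h with 1 of 9 low neighbours at 4 h, and its other feature read 0.28, -0.26 and -0.51 at 1, 2 and 6 h. Timp1 feature 1859 had 0 such neighbours at any time, and neighbour medians of 0.06, 0.06, -0.12 and 0.14. Of the other calls, Lama5 had 4 of 18, 1 of 16 and 2 of 15 low neighbours at 2, 4 and 6 h, and Gpc6, Itga6, Adam22, Mmp9, Lamb2 and Adam1a had 0.

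**Figure D2:**
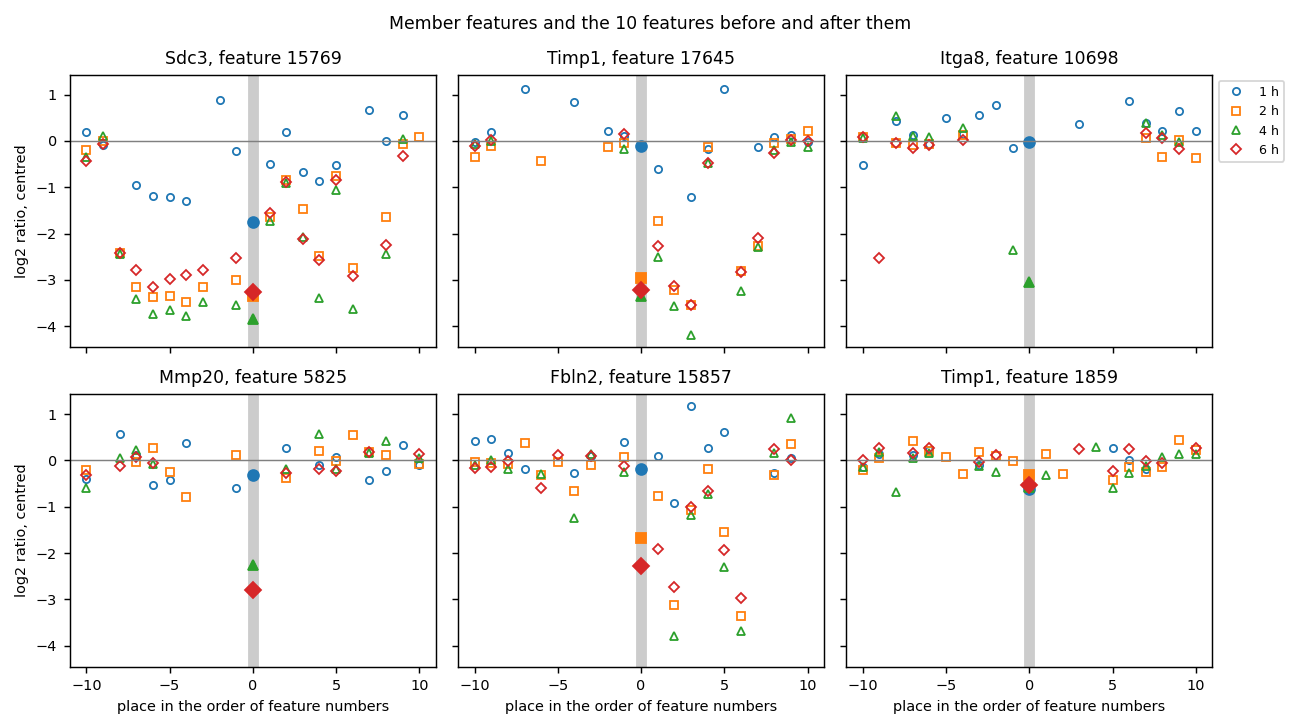
Centred log2 ratio (vertical axis) of the 5 member features at or below -1.5 on some array and of Timp1 feature 1859 (filled, at 0 on the horizontal axis) and of the 10 features before and after each in the order of feature numbers (open), with 1 colour and symbol per time. Around Sdc3 most neighbours lie below -1 at 2, 4 and 6 h, while around Timp1 feature 1859 none does.

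Matrix metalloproteinases were the largest class with 32 features of 18 genes. Their medians were -0.07, 0.06, -0.01 and -0.08 at 1, 2, 4 and 6 h, with 12 of 26, 14 of 24, 7 of 15 and 7 of 20 positive, and at 4 h the sign turned without centring. Of 13 tested over the later times 1 was called and 5 had an unadjusted p under 0.05 in limma, where 10.9% and 34.1% of all features did. The call was a feature of Mmp9, the gelatinase that cuts perineuronal matrix: feature 5892 read -0.31, 0.50, 0.56 and 0.27 (mean over 2, 4 and 6 h 0.44 ± 0.16, limma adjusted p = 0.0318). Low at 1 h and positive later, it was not matched by the other features. Feature 12977 read -0.40, -0.25, -0.01 and -0.14, and feature 9552 read 0.32 and 0.27 at 1 and 2 h. The Mmp9 features gave no common sign at any time at which more than 1 was measured.

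Mmp12, the macrophage elastase, had, on 1 of its features, the highest mean of the class among features with 4 values, at 0.03, 0.19, 0.57 and 0.33 (0.28 ± 0.23, limma adjusted p 0.298, and 0.0523 over the later times). This feature, 8982, was positive on all 4 arrays and passed over the later times without centring and with quantile normalisation. The other Mmp12 feature, 7878, had 1 value, -0.09 at 6 h, opposite in sign to feature 8982 there. Mmp16, a membrane-type protease, had one feature positive on every array (0.42, 0.13, 0.26 and 0.13) and another at -0.42, 0.12, 0.10 and -0.03. Mmp14, the membrane-type protease that activates MMP2, had a feature negative on every array (-0.16, -0.10, -0.34 and -0.39) and another at 0.23, -0.05, -0.06 and -0.08, so its features shared a sign from 2 h on and differed at 1 h. Mmp3, or stromelysin, read 0.03, -0.13, -0.24 and -0.04. The gelatinase Mmp2 had one feature at -0.11, -0.02 and -0.12 at 1, 2 and 4 h and another at 0.69 at 1 h alone.

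Of the remaining metalloproteinase genes with several features, only Mmp17 had values on all 4 arrays for each feature, and Mmp23 had them for 1. Mmp11, or stromelysin 3, read 0.44, 0.12 and 0.31 from 2 h on (limma adjusted p 0.065), and its other feature read -0.65 at 1 h. Mmp23 read -0.41, -0.12, -0.02 and 0.02 on one feature and 0.52 at 2 h on the other. Mmp17, a membrane-type protease, read -0.09, 0.06, 0.24 and -0.19 on one feature and 0.08, 0.24, 0.03 and -0.14 on the other. The Mmp17 features shared their sign from 2 h on, and those of Mmp23 differed at 2 h. Mmp8, the neutrophil collagenase, read 0.53 and 0.03 at 1 and 2 h on one feature and 0.20 at 6 h on the other. Mmp19 read -0.12 and 0.07 at 1 and 2 h, and -0.46 at 6 h on its other feature. None of these passed where it could be tested. The interstitial collagenases Mmp1a (0.21 at 1 h on one feature, -0.38 and -0.30 at 1 and 2 h on the other) and Mmp1b (0.03 at 1 h, and -0.15 and -0.28 at 1 and 2 h) are close copies, and their features both differed in sign at 1 h.

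ADAM proteases shed and process membrane proteins, and 30 features of 21 genes had values. Their medians were -0.04, -0.02, 0.13 and -0.06, and 14 of 16 were positive at 4 h, against 11 of 25, 10 of 27 and 7 of 17 at 1, 2 and 6 h. Centring makes 50% of all features positive on each array. At 4 h Adam1a, Adam9, Adam17 and Adam19 each counted with 2 features. Adam22, a catalytically inactive member that serves as the neuronal receptor of LGI1, had no 1 h value and read -0.30, -0.33 and -0.29 (mean -0.31 ± 0.02, limma adjusted p = 0.0337). The 3 values were nearly equal. Adam1a, of the sperm fertilin family, was called through feature 10938 (-0.16, 0.16, 0.41 and 0.38, limma adjusted p = 0.0493), but its feature 7573 read 0.32, -0.26, 0.48 and -0.07 and had the same sign at 4 h alone. With the arrays scaled to equal spread, feature 10938 was no longer called.

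Adam10 and Adam17, the main alpha-secretase and the TNF-converting enzyme, did not pass. Adam10 feature 12259 read 0.36, -0.02, 0.02 and -0.23 and feature 9479 read 0.26 and 0.19 at 1 and 6 h. Adam17 read -0.23, 0.16, 0.16 and -0.25 on one feature and -0.27, -0.01, 0.07 and 0.14 on the other. Both Adam17 features were thus negative at 1 h, and they differed in sign at 2 and 6 h. The 2 Adam9 features shared their sign at every time and stayed between -0.15 and 0.09.

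Other ADAM genes with several features varied more. Adam11, a catalytically inactive brain member, read -0.92, 0.01, -0.30 and -0.12 on one feature and 0.06 at 1 h on the other, so that its low 1 h value was not shared. Adam15 read -0.05, -0.32, 0.36 and 0.18, and its other feature read -0.04 and 0.11 at 1 and 2 h. Adam19 read -0.12, 0.35 and 0.11 from 2 h on, and 0.21, 0.10 and -0.11 at 1, 4 and 6 h on the other feature. The features of Adam15 differed in sign at 2 h and those of Adam19 at 6 h. Adam21, a testis member, read 0.38 and -0.06 at 1 and 2 h on one feature and -0.13, 0.03 and 0.14 at 1, 2 and 4 h on the other, and Adam5 read 0.22, -0.45 and 0.17 at 1, 2 and 6 h and 0.09 at 2 h on the other.

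Among ADAMTS proteases and the ADAMTS-like proteins, which lack a protease domain, limma called 0 of 4 tested over the later times (10.9% of all features), and 1 had an unadjusted p under 0.05. Adamts1, a protease of brevican and versican, read 0.10, -0.23, -0.11 and 0.05. Adamts5, a protease of aggrecan, read -0.72 and 0.52 at 1 and 2 h on one feature, and the other had 1 value, -0.05 at 1 h. Adamtsl1 read 0.44, -0.02, 0.08 and 0.01. Adamts8 read -0.73 at 1 h and 0.36, 0.09 and 0.11 later. Adamtsl2 was positive at 1 h (0.19) and -0.21, -0.25 and -0.25 later, with an adjusted p of 0.0501 in limma over the later times, and it passed with quantile normalisation, with 1 mean per gene, and without features at or below -1.5.

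Laminins are the cross-shaped trimers of basement membranes. Their 10 features had medians of 0.08, 0.13, -0.02 and 0.06 (the 4 h sign turned without centring), and the class held calls in both directions. Lama5, the alpha 5 chain of mature vessel basement membranes, read 0.34, -0.37, -0.57 and -0.76 (mean over 2, 4 and 6 h -0.56 ± 0.19, limma adjusted p = 0.0267). It was positive at 1 h alone. Its slope of -0.40 ± 0.08 (SE) per doubling of time had the smallest unadjusted p of a member slope in limma, 0.00236 (adjusted p = 0.271). Lama4, the other endothelial alpha chain, read 0.07, -0.37, -0.21 and -0.17 without passing (adjusted p = 0.0625). Lamb2, the beta 2 chain found at vessels and synapses, had no 1 h value and read 0.50, 0.28 and 0.21 (0.33 ± 0.15, limma adjusted p = 0.049), and it did not pass with quantile normalisation. Lamc1, the gamma 1 chain of most laminins, read -0.38, 0.60, 0.18 and 0.12, with the 1 h array the low one. Lamb3, the beta 3 chain of epithelial laminin, read 0.91 at 1 h, among the 3 highest member values there, and -0.41 at 4 h.

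Collagens had 33 features of 33 genes, and limma called 0 of 18 tested over the later times, where it called 10.9% of all features. An unadjusted p under 0.05 was reached by 6 of the 18, against 34.1% of all features. Fibrillar collagens had medians of -0.06, 0.11, 0.31 and 0.01, with 3 of 8, 5 of 8, 6 of 8 and 4 of 7 positive. Col1a1 read 0.02, -0.04, 0.32 and 0.43, while Col1a2, whose chain joins it in collagen I, read -0.05, 0.13, -0.26 and -0.12. The 2 chains of collagen I thus had opposite signs at every time. Col5a1 was positive throughout (0.07, 0.20, 0.31 and 0.16, limma adjusted p 0.320 over all arrays and 0.0695 over the later ones). Col3a1 read -0.39, 0.04 and -0.32 at 1, 4 and 6 h. Col5a2 and Col5a3 reached 0.62 and 0.58 at 4 h, and Col27a1 0.61.

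The basement membrane collagens had medians of -0.10, 0.01, -0.12 and -0.13. Col4a1, a chain of the collagen IV of all vessels, read -0.10, -0.02, 0.10 and 0.00, and its partner Col4a2 read -0.33 at 1 h and 0.05 at 2 h. Col4a3 read 0.33, 0.04, -0.45 and -0.37 and its slope did not pass (-0.31 ± 0.07, SE, unadjusted p = 0.00591, adjusted p = 0.271 in limma). Col4a4 read 0.03, -0.25, -0.17 and -0.19, negative from 2 h on without passing (limma unadjusted p 0.013, adjusted p 0.072 over the later times). Col15a1 read -0.35, 0.32, 0.14 and 0.32, with 1 h the only negative value (limma adjusted p 0.0574). Among the other collagens, the microfibril chain Col6a1 read 0.05, -0.49, -0.71 and -0.10 and Col8a1, of vessel walls, read -0.50, -0.17 and -0.71 from 2 h on (limma adjusted p 0.0695 and 0.0505). Col19a1 read -0.59, -0.35, 0.01 and -0.29, with the 4 h value apart from the others. Col9a2, a chain of cartilage collagen IX, read 0.33, 0.18 and 0.71 at 1, 2 and 4 h, the highest member value at 4 h, while Col9a3 of the same trimer stayed between -0.10 and -0.00. Col10a1 had the highest member value at 6 h, 0.59, after -0.07 and -0.10 at 2 and 4 h. Col17a1, of hemidesmosomes, read 0.62 at 2 h and -0.08 at 4 h.

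Integrins are the alpha and beta pairs that bind matrix. Alpha subunits had medians of 0.27, -0.09, -0.23 and -0.10, and 7 of 12, 5 of 12, 1 of 10 and 4 of 11 were positive. Itga6, of the laminin receptors, was called through feature 15238 (-0.53, -0.22 and -0.30 from 2 h on, limma adjusted p = 0.0467), while feature 17000 read 0.41 and -0.16 at 1 and 2 h and feature 9976 read -0.06 and 0.37 at 4 and 6 h. At 6 h the features of Itga6 had opposite signs. Itgav, the alpha subunit of the RGD-binding integrins, read 0.36, -0.05, -0.37 and -0.10. Itgae, the CD103 subunit of T cells, read -0.45, -0.14, -0.38 and 0.13. Itga7, a laminin receptor subunit, read -0.48, 0.03, -0.07 and -0.09 on one feature and 0.40, -0.24 and -0.16 from 2 h on on the other, with a shared sign at each time both had a value. Itga4 read 0.44 at 1 h on one feature and -0.23 and 0.07 at 4 and 6 h on the other. Itgax, the CD11c subunit of myeloid cells, had 1 value, 1.35 at 1 h, the highest of all member values.

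Of the beta subunits limma called 0 of 5 tested over the later times (10.9% of all features), and 2 had an unadjusted p under 0.05. Itgb1, the partner of most alpha subunits, read 0.10, -0.13, -0.18 and -0.10 on feature 6462, and its other feature read 0.02 at 2 h. Itgb2, the leukocyte beta subunit, read 0.04, 0.35 and 0.41 at 1, 2 and 4 h on one feature and -0.03, -0.01, -0.01 and 0.05 on the other, with opposite signs at each shared time. Itgb2l read -0.23, -0.11, -0.31 and 0.00. Itgb3 feature 1401 changed sign between times, at 0.68, -0.79, -0.05 and -0.76, and its other feature read 0.08 at 2 h. Itgb5 read -0.23, 0.14, 0.43 and 0.13. The integrin-binding protein Itgb1bp1 was positive on every array (0.14, 0.06, 0.18 and 0.27, limma adjusted p 0.338 over all arrays).

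Glypicans are lipid-anchored heparan sulfate proteoglycans, and glypicans 4 and 6 are astrocyte signals for synapse formation. Gpc6 read 0.30, -0.26, -0.68 and -0.65 (mean over 2, 4 and 6 h -0.53 ± 0.23, limma adjusted p = 0.0341; slope -0.38 ± 0.08, SE, unadjusted p = 0.00262). Like Lama5 it was positive at 1 h and negative later. Gpc1, the main neuronal glypican, was negative on every array (-0.05, -0.20, -0.35 and -0.17) without passing (limma adjusted p 0.320, and 0.065 over the later times). Gpc4 read 0.10, -0.25, -0.07 and -0.02. From 4 h on the 3 measured glypicans were all negative.

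Over the later times limma called 0 of 3 tested lecticans and 0 of 2 tested matrix glycoproteins, where it called 10.9% of all features. Ncan read 0.37, -0.16, -0.08 and 0.04, Vcan stayed between -0.08 and 0.07, and Bcan read -0.11, 0.33, -0.21 and -0.07. Bcan and Ncan had opposite signs at 1, 2 and 6 h. Tenascin C, Tnc, read -0.39, -0.17, -0.10 and 0.19, and the astrocyte protein Sparcl1 read -0.44, -0.15, 0.12 and 0.09. Both had their lowest value at 1 h and positive slopes that did not pass (0.20 ± 0.07 and 0.22 ± 0.07, SE, unadjusted p 0.0234 and 0.0172 in limma). Fibronectin, Fn1, read -0.98 at 1 h and 0.37 at 2 h, and Sparc had only 0.53 at 2 h, so neither was tested. Among fibulins and fibrillins, Fbln1 read -0.61, 0.63 and 0.14 at 1, 2 and 6 h, Fbln5 read 0.04, -0.12, -0.24 and -0.13 and Fbn2 read -0.14 and 0.19 at 1 and 2 h.

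**Figure D3:**
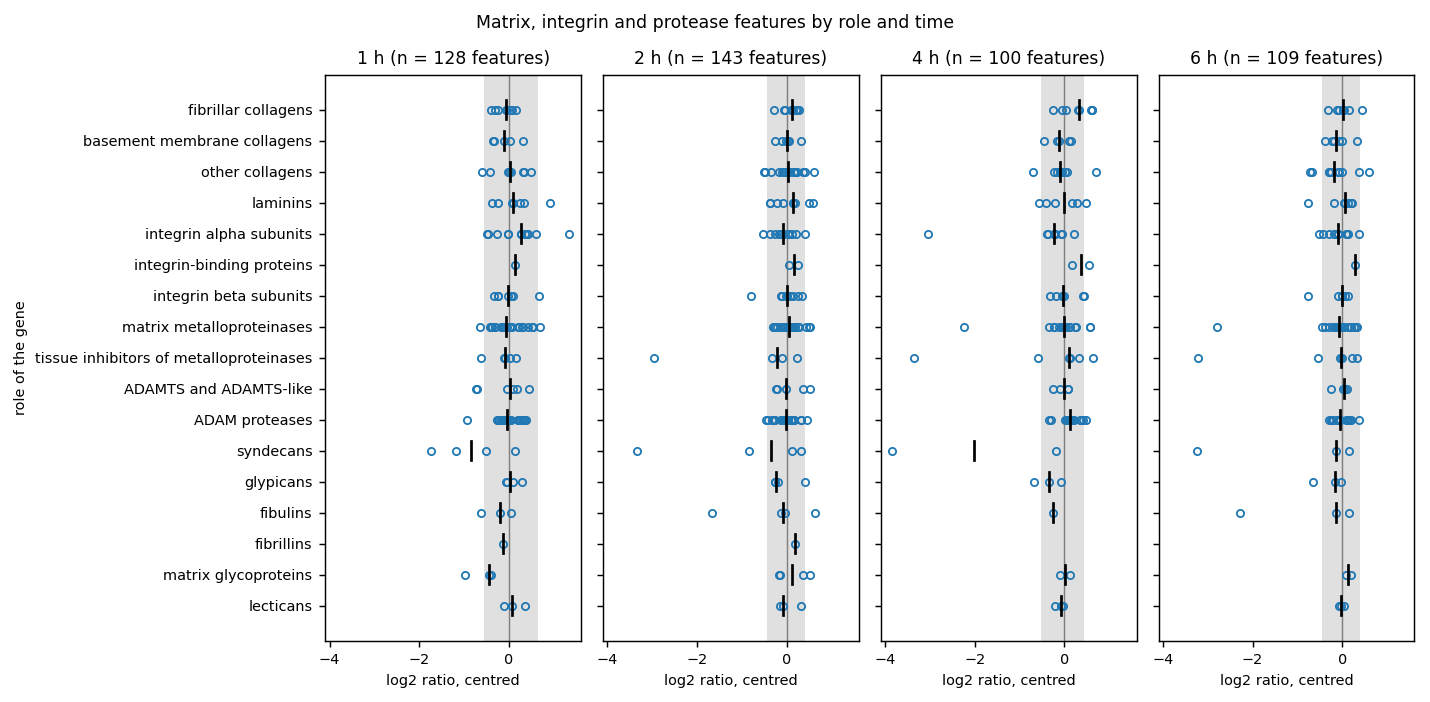
Centred log2 ratio (horizontal axis) of every member feature (circles) by role (vertical axis), with 1 panel per time; black bars are class medians and the grey band spans the 5th to 95th percentile of all features on that array. Most members lie inside the band, and the values below -1.5 at 2, 4 and 6 h belong to Sdc3, Timp1, Fbln2, Mmp20 and Itga8.

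Over all members the medians were -0.03, -0.01, -0.03 and -0.06 at 1, 2, 4 and 6 h, with all features at 0 by construction, and 46.1%, 48.3%, 47% and 42.2% were positive. Past -1 lay 2 of 128 members at 1 h (percent called over all features 0.412), 3 of 143 at 2 h (0.957), 4 of 100 at 4 h (2) and 4 of 109 at 6 h (1.44). Past 1 lay 1 member at 1 h (1.71) and none at 2, 4 or 6 h (0, 0.108 and 0.114). Past -0.5 lay 11, 7, 8 and 11 members (8.59%, 4.9%, 8% and 10.1%, where all features gave 6.37%, 3.88%, 5.21% and 4.09%), and past 0.5 lay 8, 8, 8 and 1 (6.25%, 5.59%, 8% and 0.917%, against 9.03%, 2.48%, 3.85% and 2.68%). The exact binomial 95% interval of each share, which covers counting error only, held the share of all features except at 6 h past -0.5, where it ran from 5.15% to 17.3%. These intervals count each feature as separate and were not corrected for their number. The 11 members past -0.5 at 6 h included both Timp1 features. Among them Sdc3, Timp1 feature 17645, Fbln2 and Mmp20 also lay past -1.

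Few members kept a sign. Of 69 with 4 values 4 were positive and 7 negative on every array (15.9% together), against 25.6% of all features. Over 2, 4 and 6 h 15 of 82 were positive and 27 negative throughout (51.2%, against 57.3%). From 1 h to the later times 9 turned from negative to positive and 15 from positive to negative (34.8%, against 31.9%). Of the 10 called features 7 had a 1 h value, and 4 of these had the opposite sign there: Lama5, Gpc6, Mmp9 and Adam1a.

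Features of the same gene, which share their array and target, gave a measure of agreement. In 29 genes, pairs of features had values on the same array 71 times, with a pair counted once for each array. Of these 71 counts, which are not independent, 32 (45.1%) shared their sign. Over all genes 59% of 7293 such counts did. By time the shares were 36.4%, 40%, 78.6% and 33.3% of 22, 20, 14 and 15 pairs, against 54.8%, 56.9%, 61.7% and 64.3%. The median absolute difference within a pair was 0.32, against 0.20 over all genes. Of 9 pairs with values on all 4 arrays, only those of Timp1 and Adam9 shared their sign at every time. The 2 features of Itga2b, the platelet integrin subunit, had opposite signs at every time (-0.01, 0.04, 0.22 and 0.11 against 0.62, -0.12, -0.21 and -0.18).

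**Figure D4:**
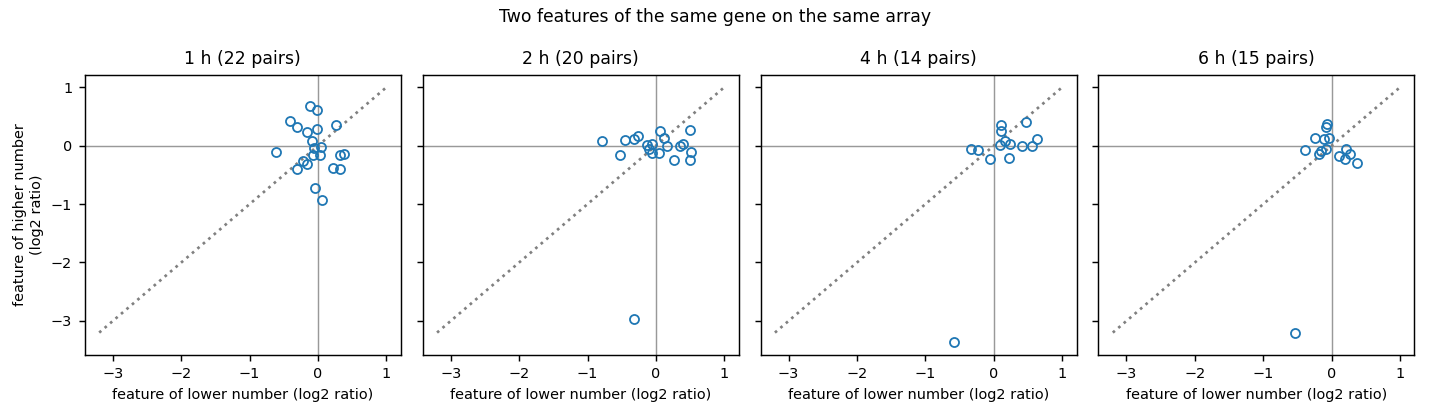
Centred log2 ratios of pairs of member features of the same gene on the same array, the lower feature number on the horizontal and the higher on the vertical axis, with 1 panel per time; the dotted line marks equal values. Points lie in all 4 quadrants, and the point below -2 at 2, 4 and 6 h is Timp1.

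Genes that work with the matrix but are no members were followed through a list of 81, of which 66 had values. Its medians were -0.09, 0.00, 0.06 and 0.01, with 24 of 71, 39 of 76, 39 of 65 and 33 of 66 features positive. Over 2, 4 and 6 h 2 of 57 passed in the positive direction, where 5.7% of all features did, and 3 in the negative, where 5.24% did, so that the list did not stand out by its number of calls. Loxl1, an elastic fibre crosslinker, read -0.69, 0.29, 0.59 and 0.48 (limma adjusted p = 0.0313), and Ctss, the microglial cathepsin S, read 0.29, 0.24, 0.53 and 0.53 on 1 of its features (0.0341 in limma). Ecm1 read 0.08, -0.75, -0.996 and -0.58, Fmod, a collagen-binding proteoglycan, 0.35, -0.44, -0.25 and -0.28, and Has3, a hyaluronan synthase, -0.05, -0.18, -0.43 and -0.32 (adjusted p 0.0165, 0.0402 and 0.0478 in limma). Other features of largest 4-array mean in the list were Matn2 (-0.23), Tgfbr1 feature 7828 (0.26) and P4hb feature 15254 (0.20). Their means over the later times were -0.25, 0.09 and 0.21 (limma adjusted p 0.0501, 0.59 and 0.09). Tgfbr1 feature 7828 read 0.76 at 1 h. Plod2 feature 7453 read -3.26 and -2.72 at 4 and 6 h, and Tgfbr2 feature 16936 read -2.14 and -2.27 at 2 and 4 h. Each lacked a later value and was not tested. The other Plod2 feature read -0.06, -0.07 and 0.48 at 2, 4 and 6 h, and the other Tgfbr2 feature -0.10, 0.11 and 0.02.

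Markers of the cells that make much of this matrix varied as well. Endothelial markers (10 of 12 genes with values) had medians of -0.01, 0.00, 0.06 and 0.18, with 4 of 9, 6 of 11, 5 of 10 and 8 of 9 features positive, and Cldn5 read -1.05 at 1 h. Markers of pericytes, smooth muscle and meningeal fibroblasts (8 of 10) had -0.21, 0.11, 0.09 and 0.03, with 1 of 6 positive at 1 h. Choroid plexus markers (3 of 8) had -0.08, -0.55, -0.60 and -0.41, astrocyte markers (9 of 9) -0.05, 0.05, -0.03 and 0.08, microglial markers (9 of 9) 0.14, -0.00, -0.07 and 0.15, and oligodendrocyte markers (7 of 8) -0.02, 0.06, 0.17 and 0.06. Granule cell markers (4 of 9) had -0.23, -0.11, -0.03 and 0.06 and general neuronal markers (5 of 6) -0.04, -0.05, 0.05 and 0.01. Over 2, 4 and 6 h limma called 2 of 3 choroid plexus features, both negative. Ttr, or transthyretin, read -0.20, -0.90, -0.60 and -0.70 (limma adjusted p = 0.0108). Kl feature 13730 read 0.20, -2.64, -3.03 and -3.18 (limma adjusted p = 0.00017). The other tested feature, Kl 2148, read -0.24, -0.20, -0.11 and -0.09 (limma adjusted p = 0.171). Kl feature 2114 read 0.05 and -0.55 at 1 and 2 h, so the low values of feature 13730 were not shared in size. Of astrocyte features limma called 3 of 12, Gfap, Aldoc and Slc1a3 feature 8616, all positive. Of oligodendrocyte features it called 2 of 11, Mog feature 5208 and Mal feature 15997, also positive. The other Mog feature read -0.07, 0.06 and 0.03 at 2, 4 and 6 h (limma adjusted p 0.943). The other Mal feature read 0.04, 0.29 and 0.10 (limma adjusted p 0.218). In addition limma called 1 of 13 microglial features (Ctss feature 13600, positive) and 2 of 8 endothelial ones (Esam positive, Flt1 negative), where 10.9% of all features passed. It called 0 of 7 pericyte, 4 granule cell and 4 neuronal features, of which 3, 2 and 0 had an unadjusted p under 0.05. The part of these cells in the ratios of the vessel laminins and collagens was not tested.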

How the data were processed

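Per the labels, each of 4 two-channel arrays compared dentate gyrus RNA of saline mice (Cy3) and MK-801 mice (Cy5), with 1 array per time and no dye swap. The deposited table holds 1 log ratio per feature and array, read here as log2. Its log base, the direction of the ratio, scanning and normalisation are not given in the sources used here. Depth has no meaning for these arrays, and their number limits the precision. Each array's non-zero values were centred on their median (deposited medians at most 0.017), and exact 0 was read as no value. Features were named by the platform annotation: 13738 had 1 symbol, 52 several and 2491 none, and 13694 were matched by Entrez identifier, with 0 symbols changed.

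limma 3.58.1 (lmFit and eBayes, R 4.3.3) was fitted over all features with a value on every array of a test: the mean over 4 arrays, the mean over 2, 4 and 6 h, and the slope on log2 hours. P-values were adjusted by Benjamini-Hochberg, with a threshold of 0.05, and the code was tested on simulated data. Different times stand in for replicates, so the error includes change with time, and whether samples came from separate animals is not stated. Without a dye swap, dye and drug cannot be separated in the tests of the means. Tables used Python 3.11.15, pandas 2.3.3 and scipy 1.17.1. Promoters are RefSeq's (GRCm38.p6). The genes named are, per role, the 3 features of largest absolute mean, the calls, the 3 highest and lowest members at each time, all features of genes with several, a list of well-known matrix genes, and the 3 matrix partners of largest mean in each direction. Others were named after their values were seen. The members and lists were chosen with earlier results of these data known. Alternatives were no centring, equal spread, quantile normalisation, exact 0 as a value, gene means, natural logarithms, array weights, fewer arrays per feature, members with a value on all 4 arrays, leaving out very low features, and leaving out each array. Probe sequences were not used here.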

Additional observations from a re-analysis of the deposited data

Results flagged for a closer look

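In 4 member features the ratio was at or above 0.5 at one time and at or below -0.5 at another. With 1 array per time the differences between times were not tested. Itgb3 feature 1401, the beta subunit of the vitronectin receptor, lay 1.46 higher at 1 h (0.68) than at 2 h (-0.79). Fbln1, an elastic fibre and basement membrane protein, lay 1.24 higher at 2 h (0.63) than at 1 h (-0.61). Adamts5 feature 15967, an aggrecan-cutting protease, also lay 1.24 higher at 2 h (0.52) than at 1 h (-0.72). Col12a1, a fibril-associated collagen, lay 1.19 higher at 1 h (0.50) than at 6 h (-0.69). In all 4 the 1 h array was one end of the difference.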

How the results depend on the processing

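Each value is already a ratio of the saline and MK-801 channels of 1 array, so the 2 conditions were compared within arrays. The labels give no further pairing of animals or of times. For the mean over 4 arrays, 0 members called became 1 (Sdc3) with quantile normalisation or with values on at least 3 arrays, and 20 of 69 with limma array weights (27.4% of all features; the 1 h array had weight 0.203). Leaving out each array gave 0 to 10 calls, 10 of them without 1 h. Over 2, 4 and 6 h, the 10 calls became 0 with exact 0 as a value and ranged from 2 to 12 when an array was left out (4 without 4 h, 2 without 6 h). The other settings gave 7 to 11. The slope gave 0 calls in every setting run, with 6 to 25 members at an unadjusted p under 0.05 in limma.

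Past 1 at 1 h, the share became 0% with gene means, quantile normalisation, values on at least 3 arrays, or members with a value on all 4 arrays. Past -1 it became 0% at 2, 4 and 6 h without features at or below -1.5. Past 0.5 gene means gave 1.67% at both 1 and 2 h, 3.33% at 4 h and then 0% at 6 h. Quantile normalisation, or members with a value on all 4 arrays, also gave 0% past 0.5 at 6 h. Read as natural logarithms, 12.5% at 1 h and 11.89% at 2 h lay past 0.5 and 17.97% at 1 h past -0.5. The 2 h median became -0.055 with gene means, -0.060 with quantile normalisation, -0.054 where at least 3 arrays had values, and -0.055 for members with a value on all 4 arrays. The causes were not tested, beyond the fewer features these settings hold. Another 128 shares and 28 medians stayed within their error. Of 618 alternative means of 62 named features 3 moved by 1 SD or more and 42 changed sign, 30 of them when an array was left out. With 1 array per time, no difference between times can be told from array error.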
